A study of Mus musculus with 12 samples.

Results

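Potassium channel genes were followed in the hippocampus of mice with and without Shank2 deletions; Shank2 encodes a postsynaptic scaffold. They were taken as every gene whose symbol begins with Kcn and a lower-case letter, with antisense transcripts of the form Kcn...os left out. This rule found 91 of the 24590 genes listed in at least 1 mouse, all of them protein-coding, and 81 of the 91 were listed in all 12 mice. Another 3 annotated genes with such symbols (Kcnj1, Kcnk16 and Kcnmb3) were not analysed here. A mean of at least 1 FPKM, a length-corrected share of the sequenced fragments, averaged over the 12 mice was required for testing, and 68 of the 91 genes met it. Just outside this limit lay Kcnk6 at 0.862 and Kcna5 at 0.773 deposited FPKM, and just inside it Kcnh5 at 1.104 and Kcnmb2 at 1.6.

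Poly(A) RNA was sequenced from the hippocampi of 12 mice in 4 groups of 3. Knockout mice without Shank2 exons 6 and 7 (KO776, KO777 and KO864) stood beside wild types of that line (WT778, WT809 and WT865), and knockout mice without exon 7 (KO969, KO990 and KO994) beside wild types of theirs (WT628, WT993 and WT999). The labels give 1 background for all groups, a mix of C57BL/6J and C57BLl/6N, and describe the mice used for behaviour as male littermates aged 8 to 15 weeks. They do not say whether these mice gave the RNA, at what age it was taken, or whether the lines were bred, dissected or sequenced side by side. They also name no promoter or Cre that would limit a deletion to a cell type, and no clone or pool. Values of a group are given in the order of these mouse numbers.

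Potassium channels let potassium leave or enter the cell and so set the resting potential, the repolarization after an action potential and the rate of firing. Voltage-gated pores open on depolarization, some subunits form no channel alone and modify those of a partner family, and calcium- or sodium-activated pores open when these ions rise. Inward rectifiers and two-pore channels hold the membrane near rest, in glia as well as in neurons, and auxiliary subunits set how a pore gates and where it sits.

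The libraries were checked for features that touch these genes. The share of mitochondrial RNA in the summed FPKM ran from 6.22 to 7.39% over the exon 6-7 mice and from 10.3 to 14.3% over the exon 7 mice. In each line 1 wild type and 1 knockout (WT778 and KO776, and WT628 and KO969) had no value for a transcript identifier with no symbol that reached 218 to 435 FPKM in the other 8 mice; they are called library set A, and the other 8 set B. Mouse WT865 stood apart in choroid plexus transcripts, described with Kcne2 and Kcnj13. Shank2 was 14.4, 13.8 and 14.9 scaled FPKM in the exon 6-7 wild types and 6.22, 7.02 and 6.15 in the knockouts (log2 fold change -1.04, SE 0.119, adjusted p = 0.0111). In the exon 7 line it was 36.04, 42.4 and 44.1 in wild types and 33.2, 43.5 and 44.6 in knockouts, so that the gene's total level separated genotypes in the first line and did not check the labels of the second.

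All levels below are FPKM scaled between libraries, which are divided by transcript length. A trend with length that differs between the lines remained in them and is given with the wild types below, so a comparison of genes of unlike length within a mouse carries it. Their read depth is unknown, and fewer cells of a type and less RNA per cell cannot be told apart in tissue RNA. Summed over the 91 genes the level was 1146 ± 27.5 (SD, n = 3) in the exon 6-7 wild types, 1129.6 ± 30.8 in their knockouts, 1409 ± 28.2 in the exon 7 wild types and 1356 ± 13.98 in their knockouts. The sum was set mainly by a few genes, and the 12 with the highest mean held 54.0% of it. These came from different families, with auxiliary subunits in 4 of the 12 places.

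Among auxiliary subunits, Kcnab2, a cytoplasmic beta subunit of the Kcna channels, had the highest level of all 91 genes, 169 to 190.2 scaled FPKM over the 6 mice of the exon 6-7 line and 144 to 173 over the 6 of the exon 7 line. Its relative Kcnab1 reached 25.3 to 33.4 and 40.3 to 54.4. Kcnip2, a calcium-binding subunit of the Kcnd channels, reached 73.8 to 80.9 and 55.7 to 76.9, above Kcnip3 (25.7 to 39.4 and 21.1 to 32.9), Kcnip4 (24.9 to 30.5 and 24.6 to 30.8) and Kcnip1 (13.5 to 16.3 and 11.3 to 14.01). Kcnmb4, the neuronal beta subunit of the large-conductance calcium-activated channel, reached 56.7 to 79.5 and 38.4 to 62.9. The families of beta, calcium-binding and large-conductance subunits thus each had 1 member that ranked among the first 4 of all Kcn genes.

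Among pore-forming voltage-gated genes, the fast-deactivating Kcnc1, known from fast-spiking neurons, ranged from 23.6 to 27.8 scaled FPKM over the exon 6-7 mice and from 37.04 to 44.8 over the exon 7 mice, with its relative Kcnc2 at 11.3 to 16.5 and 20.4 to 28.99. Kcnd2, the pore of the dendritic A-type current of pyramidal neurons, reached 13.6 to 16.9 and 28.7 to 32.03, and Kcna4, an axonal A-type subunit, 4.57 to 6.896 and 6.07 to 8.65. For every one of these genes except Kcna4 the 2 lines did not overlap, which is taken up with the wild types below.

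Among the remaining pores, Kcnn2, the pore of a small-conductance calcium-activated channel that shapes the afterhyperpolarization, was 42.9, 33.4 and 36.4 scaled FPKM in the exon 6-7 wild types and 39.6, 35.7 and 44.9 in the exon 7 wild types, far above Kcnn1 (4.86 to 5.71 and 3.14 to 4.39 over the mice of the 2 lines) and Kcnn3 (0.329 to 1.03 and 2.63 to 3.86). Among inward rectifiers Kcnj3 and Kcnj9, subunits of the channels that G proteins open, reached 38.7 to 45.6 and 33.6 to 42.4 in the exon 6-7 line, and 47.02 to 60.7 and 26.3 to 33.8 in the exon 7 line. Kcnj10, the potassium-buffering channel of astrocytes, was 22.5, 22.5 and 31.1 in the exon 6-7 and 58.98, 44.7 and 58.02 in the exon 7 wild types. Its exon 7 values all exceeded its exon 6-7 values. Kcnj4, a strong inward rectifier, reached 36.4 to 51.1 and 18.7 to 21.9, so that in the exon 6-7 line its range overlapped that of Kcnj3. Of the two-pore genes Kcnk1 (36.7 to 55.7 and 37.3 to 46.4) and Kcnk2 (11.4 to 13.7 and 9.29 to 12.3) had the highest means over the 12 mice.

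The 23 genes below the limit had means of at most 0.865 scaled FPKM, and 13 of them were listed in every mouse. They included Kcnq1, a pore of heart and epithelia (0.0648 to 0.346), Kcnn4, the intermediate-conductance calcium-activated channel of blood cells and epithelia (0 to 0.385), and Kcnj5, a G-protein-opened subunit of the heart (0.0978 to 0.248). By family 7 of 30 pore-forming voltage-gated genes, 2 of 10 modifying subunits, 1 of 8 calcium- or sodium-activated genes, 3 of 14 inward rectifiers, 5 of 13 two-pore genes and 5 of 16 auxiliary subunits fell below it.

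**Figure D1:**
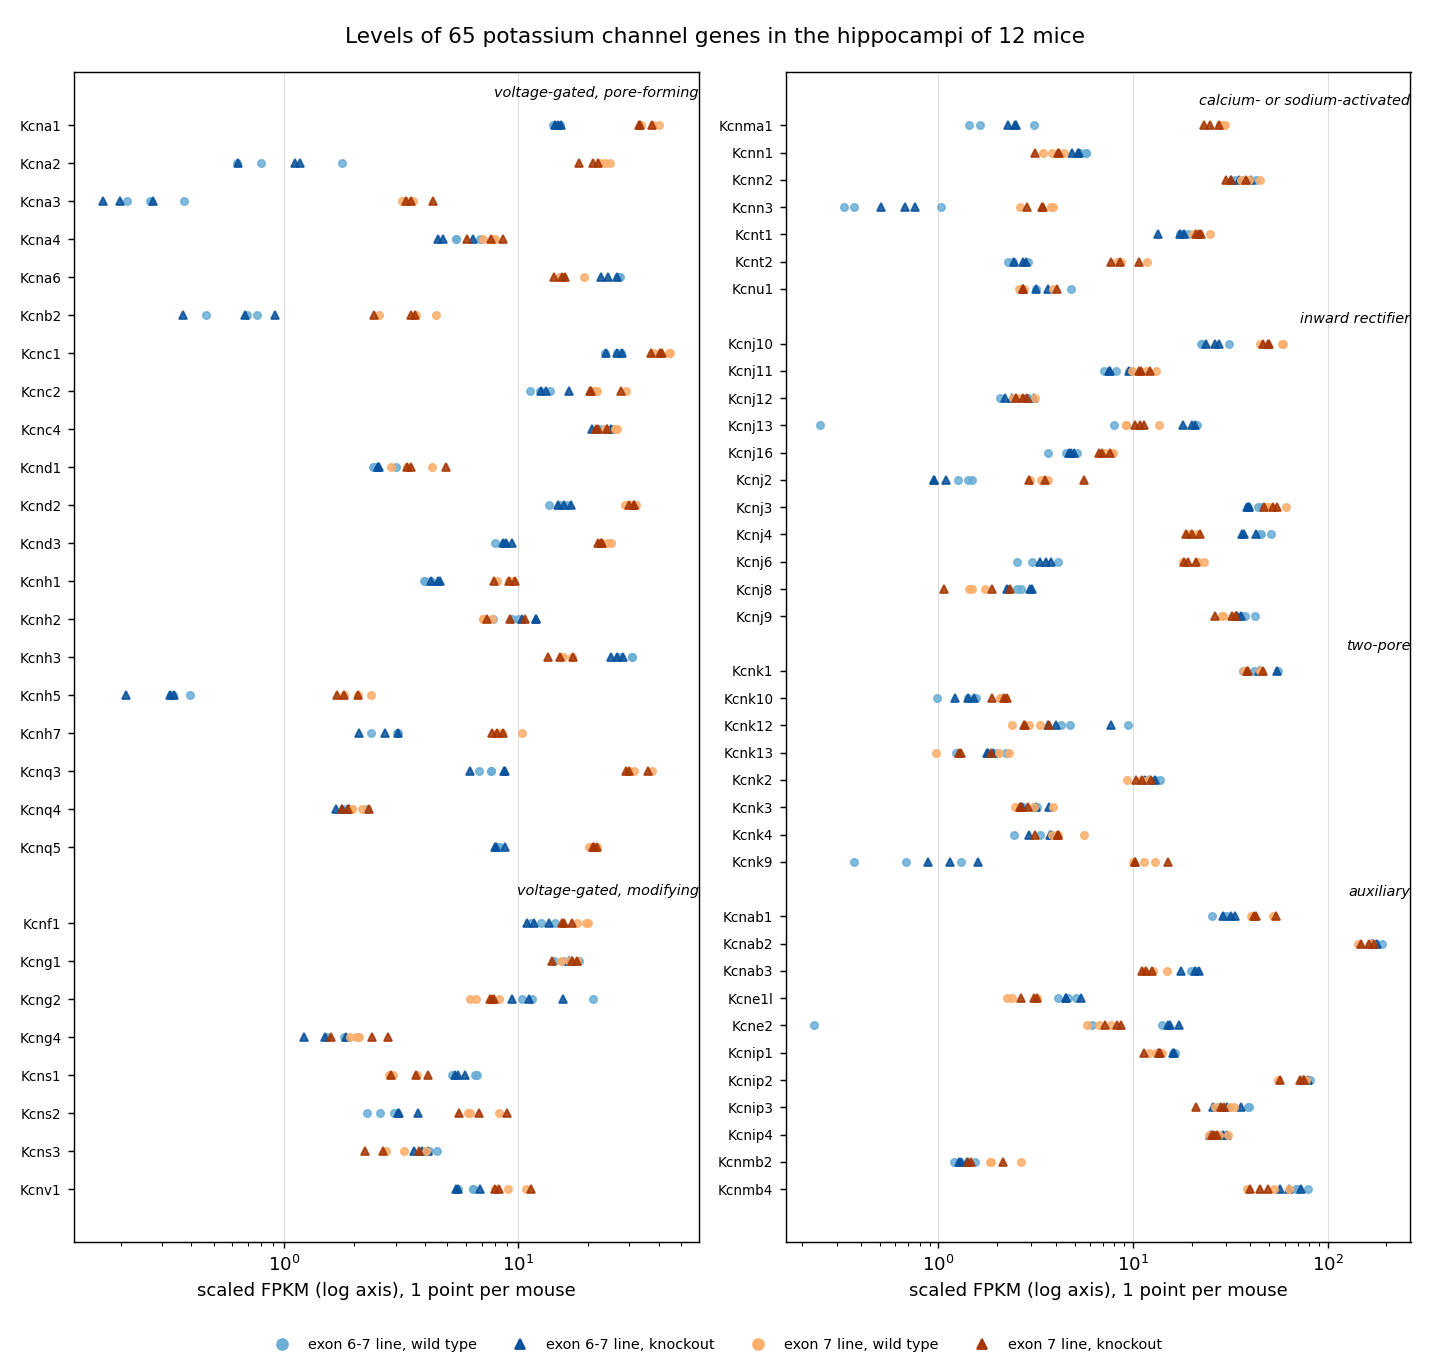
Levels of 65 of the 68 potassium channel genes tested, grouped by family, in scaled FPKM on a logarithmic axis; each point is 1 mouse, circles are wild types, triangles knockouts, blue the exon 6-7 line and orange the exon 7 line. Kcnab2 is highest, at 144 to 190.2, and the lines stand far apart for Kcna2 and Kcnma1.

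Loss of Shank2 exons 6 and 7 moved no potassium channel gene past the threshold. Among the 68 genes tested, 0 had a limma adjusted p under 0.05, against 2 of all 14218 genes (0.0141%), and 4 had an unadjusted p under 0.05, against 4.1% of all genes. The 4 were Kcnj4, Kcne2, Kcnj13 and Kcnh2. Knockouts and wild types did not overlap for 3 genes that were higher in knockouts (Kcne2, Kcnh2 and Kcns2, background 5.01%) and for 4 that were lower (Kcnj4, Kcnj2, Kcna6 and Kcnn1, background 6.31%). The median log2 fold change was 0.00 over the 68 genes and 0.00 over all genes, and 33 of 68 fold changes were above 0, against 49.4% of all genes. The interval of a typical member reached 0.29 log2 units to either side of its estimate (95% limits, not adjusted).

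The genes named here had the smallest unadjusted p in each direction, and none passed. Kcnj4, expressed by forebrain neurons, was 44.7, 51.1 and 45.4 scaled FPKM in wild types and 37.2, 36.4 and 42.8 in knockouts. All knockouts lay below all wild types (log2 fold change -0.27, SE 0.0954, adjusted p = 1, exact two-sided permutation p = 0.1, the smallest that 3 against 3 allows). The log2 difference was -0.26 in library set A, which holds 1 mouse of each genotype in a line, and -0.28 in set B. Where the groups do not overlap, both sets must share a sign. Kcnj4 of the exon 7 mice was 19.6, 21.2 and 19.1 in wild types and 18.7, 20.1 and 21.9 in knockouts, with overlapping groups (log2 fold change 0.02). The other inward rectifiers named by the rule were Kcnj2, a related strong rectifier, at 1.26, 1.49 and 1.42 in wild types and 1.09, 0.949 and 0.953 in knockouts (log2 fold change -0.26, SE 0.167, adjusted p = 1), and Kcnj9 at 35.7, 37.6 and 42.4 against 34.1, 33.6 and 35.8 (log2 fold change -0.15, SE 0.105, adjusted p = 1). For Kcnj2 too the knockouts lay below the wild types without overlap, whereas for Kcnj9 the highest knockout just exceeded the lowest wild type. In sets A and B the log2 differences were -0.11 and -0.33 for Kcnj2, and -0.06 and -0.20 for Kcnj9.

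Kcnh2, the pore of a channel of the ether-a-go-go-related family that recovers quickly from inactivation, was 9.45, 10.03 and 7.81 scaled FPKM in the exon 6-7 wild types and 11.97, 10.4 and 11.97 in the knockouts (log2 fold change 0.31, SE 0.130, adjusted p = 1). In the exon 7 line it was 7.096, 7.08 and 7.77 against 9.25, 7.41 and 10.8 (log2 fold change 0.27, SE 0.130, adjusted p = 1). The groups did not overlap in the first line and overlapped in the second, where 1 knockout lay among the wild types. Averaged over both lines the effect was 0.29 (SE 0.0920), with an exact two-sided permutation p of 0.015 over relabellings within each line (the smallest possible is 0.005) and an adjusted p of 1 over all genes by limma. Its log2 difference in sets A and B was 0.31 and 0.30 in the exon 6-7 line, and 0.34 and 0.24 in the exon 7 line, where set A has 1 mouse of each genotype in a line.

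The largest differences were those of Kcne2 and Kcnj13, which are known from the epithelium of the choroid plexus, the tissue that secretes cerebrospinal fluid. Kcne2 is a single-pass subunit that partners voltage-gated pores, and Kcnj13 is an inward rectifier of weak rectification. Both values moved together from mouse to mouse (correlation 0.99 over the 12 mice of values centred within each line). Other genes did so as well, Enpp2 (0.998) and Clic6 (0.99) with Kcne2, and Enpp2 (0.98) and Kl (0.98) with Kcnj13. The 250 bases before the annotated starts of Kcne2 and Kcnj13 are shown as a description. The letters TATAAA (the TATA box) or TAATC (letters bound by the OTX homeodomain factors) on either strand are in capitals. Both windows are from RefSeq on GRCm38.p6, written 5′ to 3′ on the strand of the gene, chr1:87394730-87394979 on the minus strand for Kcnj13 and chr16:92292139-92292388 on the plus strand for Kcne2.
Kcnj13: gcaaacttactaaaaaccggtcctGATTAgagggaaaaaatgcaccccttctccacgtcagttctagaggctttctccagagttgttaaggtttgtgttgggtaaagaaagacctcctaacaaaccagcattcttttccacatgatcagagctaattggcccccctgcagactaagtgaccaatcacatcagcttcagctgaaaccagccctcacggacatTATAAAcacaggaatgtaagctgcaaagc
Kcne2: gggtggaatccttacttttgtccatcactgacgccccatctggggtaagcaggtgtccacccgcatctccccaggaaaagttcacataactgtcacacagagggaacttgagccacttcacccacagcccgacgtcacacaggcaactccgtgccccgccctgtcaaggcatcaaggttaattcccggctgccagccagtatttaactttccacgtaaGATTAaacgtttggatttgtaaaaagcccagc
TATAAA begins 29 bases before the start of Kcnj13, and TAATC lies on the other strand (as GATTA) 226 bases before the start of Kcnj13 and 32 bases before that of Kcne2. Of 32851 promoter windows of this length 12.4% hold TATAAA and 19.8% hold TAATC on either strand, so that such letters are frequent. Their part in the levels was not tested.

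Kcne2 was 6.14, 14.1 and 0.231 scaled FPKM in the exon 6-7 wild types and 15.1, 15.6 and 17.1 in their knockouts (log2 fold change 1.73, SE 0.632, adjusted p = 1, exact permutation p = 0.1). Kcnj13 was 8.01, 21.2 and 0.245 in those wild types and 20.2, 18.1 and 20.7 in the knockouts (log2 fold change 1.71, SE 0.724, adjusted p = 1, exact permutation p = 0.4). The low value in each was that of mouse WT865, at 1.69% of the mean of the other 5 mice of its line for Kcne2 and 1.39% for Kcnj13. Ttr, the thyroid hormone carrier made by the choroid plexus, was 3934, 8494 and 35.6 in the same wild types and 7479, 8291 and 6615 in the knockouts. The summed level of 12 choroid plexus markers was 48.8 to 8688 scaled FPKM in wild types and 6809 to 8497 in knockouts, with all 12 markers above 0 on the log2 fold change scale (median 1.40) and none at 0 in any mouse. Without mouse WT865 the log2 fold change was 0.70 for Kcne2 (adjusted p = 0.910) and 0.54 for Kcnj13 (adjusted p = 0.971), still without passing. The difference between knockout and wild type was 1.18 in library set A and 2.01 in set B, which holds WT865, for Kcne2, and 1.23 and 1.95 for Kcnj13. The part of the choroid plexus markers in the result was not tested.

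In the exon 7 line neither gene differed beyond the spread of the mice. Kcne2 was 7.71, 6.69 and 5.77 scaled FPKM in wild types and 7.15, 8.25 and 8.7 in knockouts (log2 fold change 0.23, SE 0.632, adjusted p = 1), and Kcnj13 was 13.6, 9.15 and 9.195 against 11.4, 10.2 and 10.8 (log2 fold change 0.04, SE 0.724, adjusted p = 1). Groups overlapped for both, and the choroid plexus markers summed to 1465 to 1773 and 1707 to 2349. The ratio of Kcnj13 to Kcne2 stayed between 1.06 and 1.501 over the mice of the exon 6-7 line, mouse WT865 included, and between 1.24 and 1.77 over those of the exon 7 line. Kcnj13 exons overlap those of Gigyf2 on the other strand (25.4 scaled FPKM on average), and whether reads were counted by strand is not known here.

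**Figure D2:**
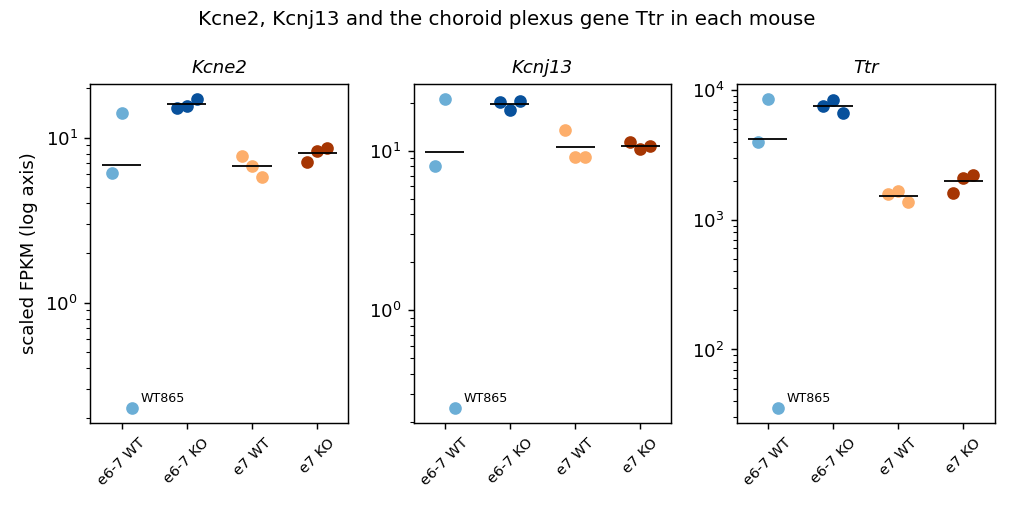
Kcne2, Kcnj13 and the choroid plexus gene Ttr in scaled FPKM on a logarithmic axis, by group; each point is 1 mouse and each line the mean of a group. Mouse WT865 is lowest for all 3 genes, at 0.231, 0.245 and 35.6.

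Deletion of exon 7 likewise moved no potassium channel gene past the threshold. By limma 0 of 68 had an adjusted p under 0.05 (0% of all genes) and 1 had an unadjusted p under 0.05, against 3.46% of all genes. No gene was higher in knockouts without overlap of the groups (background 3.27%) and 3 were lower (Kcnf1, Kcna2 and Kcnma1, background 3.77%). The median was -0.04 over the 68 genes and -0.01 over all genes, and 23 of 68 fold changes were above 0, against 46.7% of all genes. The whole range was -0.26 to 0.27.

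The single gene with an unadjusted p under 0.05 was Kcnf1, a modifying subunit that forms no channel alone. It was 20.02, 17.9 and 19.5 scaled FPKM in wild types and 17.1, 15.4 and 15.8 in knockouts (log2 fold change -0.23, SE 0.106, adjusted p = 1, exact permutation p = 0.1). All knockouts were below all wild types, so the log2 differences within set A (-0.22, 1 mouse of each genotype) and set B (-0.24) had to share a sign. Kcnn2 was 39.6, 35.7 and 44.9 in wild types and 37.9, 29.9 and 31.9 in knockouts (log2 fold change -0.26, SE 0.130, adjusted p = 1), and Kcnc4, an inactivating relative of Kcnc1, was 26.1, 23.6 and 26.5 against 21.6, 23.9 and 21.96 (log2 fold change -0.17, SE 0.0940, adjusted p = 1). Kcnj2 was 3.65, 3.35 and 2.94 in wild types and 5.59, 3.51 and 2.91 in knockouts (log2 fold change 0.18, SE 0.167, adjusted p = 1), where the high value was that of mouse KO969. Kcne1l, a single-pass subunit related to Kcne2, was 2.26, 2.39 and 3.199 against 3.098, 3.23 and 2.65 (log2 fold change 0.15, SE 0.128, adjusted p = 1). For these other genes the log2 differences in sets A and B were less even. They were -0.06 and -0.37 for Kcnn2, -0.26 and -0.12 for Kcnc4, 0.50 and 0.02 for Kcnj2, and 0.33 and 0.06 for Kcne1l.

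**Figure D3:**
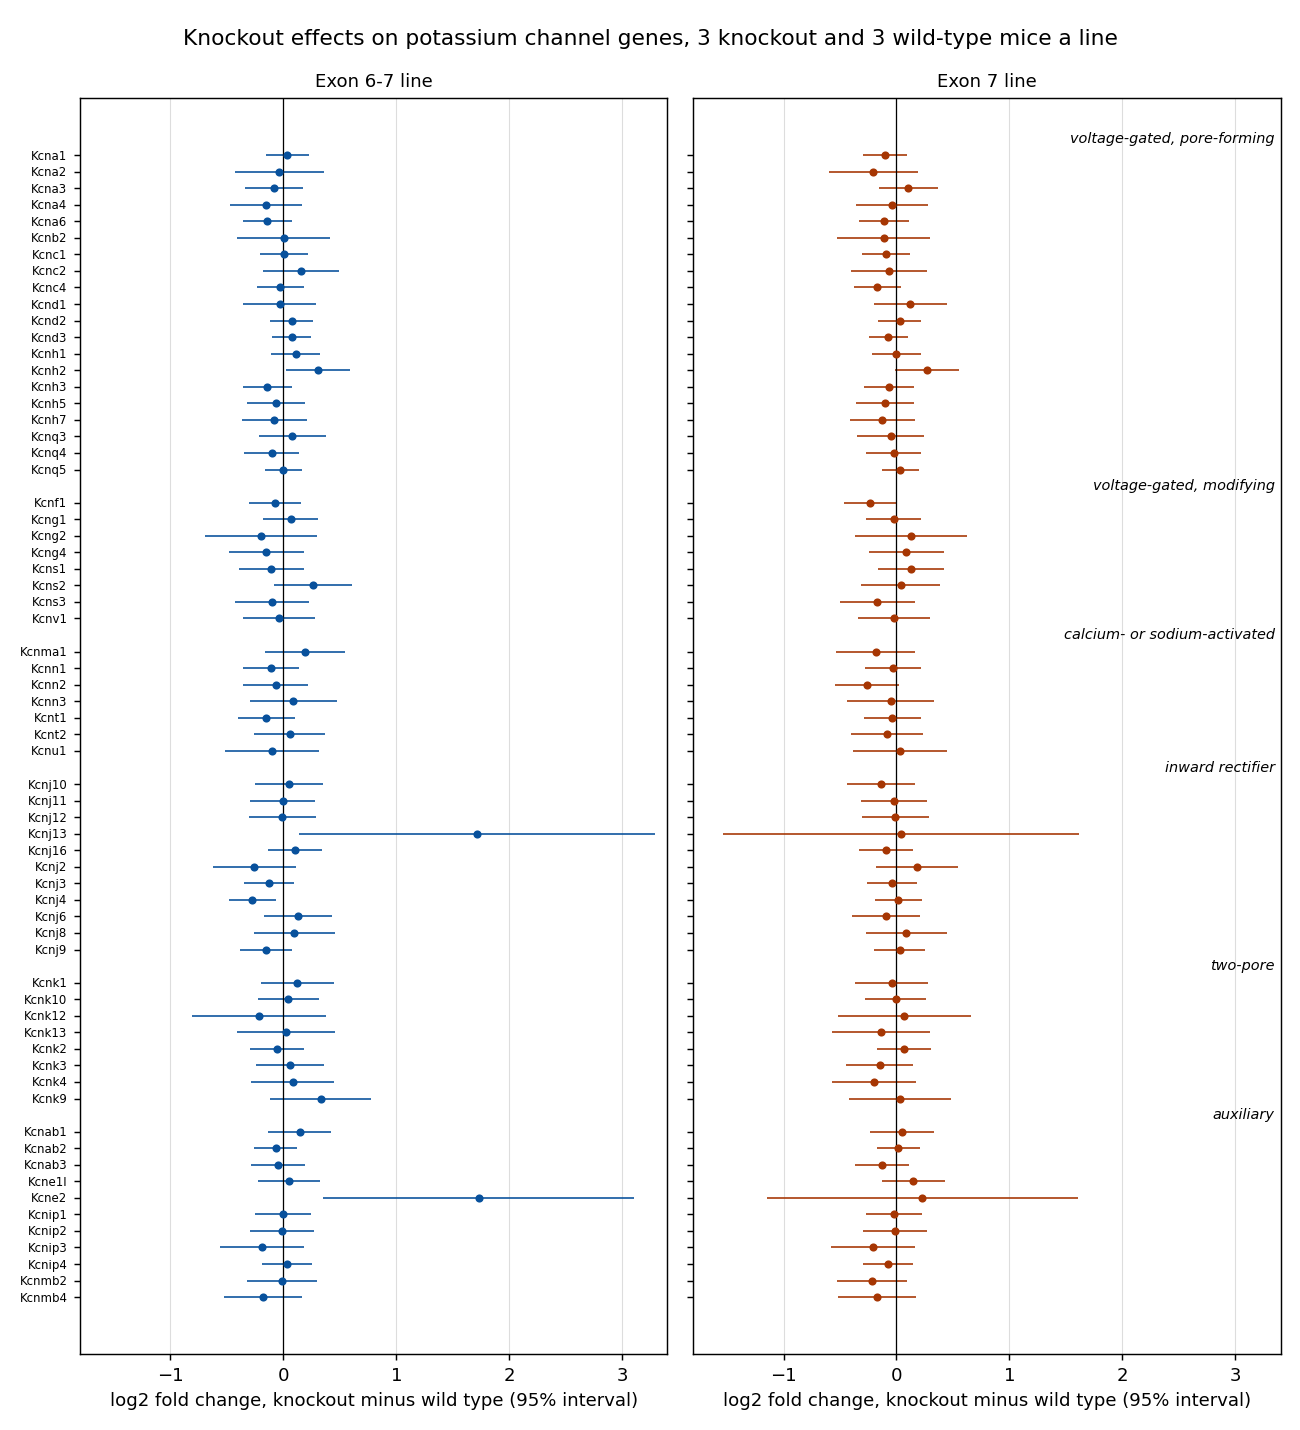
Log2 fold change of knockout minus wild type for 65 of the 68 potassium channel genes tested, by family, in the exon 6-7 line (left) and the exon 7 line (right); points are estimates and bars 95% intervals from limma, with 3 mice a group. Kcne2 and Kcnj13 have the widest intervals and lie at 1.73 and 1.71 in the exon 6-7 line, and no gene passed the adjusted threshold.

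The effects of the 2 deletions were set against each other, since they are different alleles of 1 gene. The difference of the effects (exon 7 minus exon 6-7) had an adjusted p under 0.05 by limma for 0 of 68 genes, against 0.00703% of all, and an unadjusted p under 0.05 for 0, against 3.88% of all. The interval of a typical member reached 0.41 log2 units to either side. Nearest to it were Kcnj4 (difference 0.29, unadjusted p = 0.0520 by limma), Kcnj2 (0.44) and Kcns1, a modifying subunit (0.24), and in the other direction Kcne2 (-1.50), Kcnma1 (-0.38) and Kcnj13 (-1.67). Without mouse WT865 the difference was -0.47 for Kcne2, -0.50 for Kcnj13 and -0.61 for Kcnma1, and that of Kcnma1 was -0.23 without mouse WT778. The mean of the effects had an adjusted p under 0.05 for 0 genes (0.0141% of all genes) and an unadjusted p under 0.05 for 2, Kcnh2 and Kcne2, against 3.62% of all. Kcne2 had a mean effect of 0.98 with an exact permutation p of 0.015, and of 0.47 without mouse WT865. Other mean effects named by the rule were 0.88 for Kcnj13 (0.29 without mouse WT865), -0.15 for Kcnf1, -0.13 for Kcnj4 and -0.17 for Kcnn2, with an adjusted p of 1 each by limma.

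Markers of other cells were uneven between genotypes in both lines. In the exon 6-7 line summed oligodendrocyte markers were 5401 to 6704 scaled FPKM in wild types and 4731 to 4849.5 in knockouts, with 8 of 8 markers below 0 (median log2 fold change -0.35). There 8 of 8 microglial markers were below 0 (median -0.15), with overlapping sums of 176 to 216 in wild types and 157 to 192 in knockouts. Meningeal and fibroblast markers summed to 53.2 to 60.8 in wild types and 70.1 to 75.7 in knockouts. Astrocyte and excitatory neuron markers overlapped between genotypes, at 1104 to 1474 against 1076 to 1311 and 1181 to 1268 against 1176 to 1222. Interneuron markers were at 911 to 947 against 807 to 926 with 6 of 6 below 0, and pericyte markers at 76.3 to 85.6 against 80.6 to 90.4 with 5 of 5 above 0. In the exon 7 line oligodendrocyte markers summed to 5127 to 5322 in wild types and 4666 to 4976 in knockouts, without overlap and with 8 of 8 below 0 (median -0.08). Meningeal and fibroblast markers summed to 63.9 to 64.6 and 65.4 to 80.3 there, with 7 of 8 above 0. Of the microglial markers 7 of 8 were below 0, with overlapping sums of 117 to 137 in wild types and 110 to 125 in knockouts. No marker of any of these lists was at 0 in a mouse. Their part in the values of the channel genes was not tested.

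The wild types of the lines differed for most potassium channel genes. Of the 68, 33 were higher in the exon 7 wild types, among them Kcna2, Kcnma1, Kcnk9 and Kcnj6, and 12 were lower, led by Kcnj4 (limma, adjusted p under 0.05). Among all 14218 genes 33.9% were higher and 33.2% lower, which sum to 67.1%. The count of 45 Kcn genes that differed (66.2%) is near that background, and 48.5% of the Kcn genes were higher and 17.6% lower. Of the 33, 5 (Kcna3, Kcnb2, Kcnh5, Kcnn3 and Kcnk9) averaged under 1 scaled FPKM in the exon 6-7 line and so met the limit on level through the exon 7 line, where they had to be higher; no lower gene met it through 1 line. With at least 1 in both lines 63 Kcn genes were left, 28 of them higher and 12 lower (44.4 and 19.0%), beside 33.3% and 33.4% of 13422 genes. The median log2 difference was 0.35 over the 68 genes and -0.01 over all genes. In the knockouts, which are other animals, 34 Kcn genes were higher in the exon 7 line without overlap of the groups (background 34.5%) and 11 lower (background 33.3%). All 33 genes named higher in wild types were among the 34, as 91.6% of all genes called higher were, and 9 of the 12 were among the 11, with Kcnj8, Kcnj9 and Kcnk12 as the exceptions (88.8% of all genes called lower). Which features of the lines or of their handling go with this difference cannot be told apart, since each line is 1 block of mice. Mitochondrial transcripts parted the lines too, as given above. Sums of cell type markers also differed between the wild types of the lines. Interneuron markers summed to 911 to 947 scaled FPKM for the exon 6-7 mice and 504 to 663 for the exon 7 mice. Microglial markers summed to 176 to 216 and 117 to 137, and excitatory neuron markers to 1181 to 1268 and 1442 to 1678. Markers of the thalamus and other neighbouring tissue summed to 29.3 to 35.8 and 42.0 to 51.2, with 6 of 7 tested above 0. Oligodendrocyte markers summed to 5401 to 6704 and 5127 to 5322, with 6 of 8 below 0. Meningeal and fibroblast markers summed to 53.2 to 60.8 and 63.9 to 64.6, with 5 of 8 above 0. Astrocyte, endothelial and pericyte sums overlapped. Choroid plexus sums overlapped, at 4011, 8688 and 48.8 (the last that of mouse WT865) and 1465 to 1773. With mouse WT865 included, 11 of 12 markers were above 0 on the log2 scale. The sums of mice WT778 and WT809 nevertheless exceeded that of every exon 7 wild type. Single markers of the interneuron, microglial and excitatory neuron lists were divided. Below 0 were 4 of 6 interneuron, 5 of 8 microglial and 4 of 8 excitatory neuron markers. Their part in the result was not tested.

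Among voltage-gated pores 16 of 23 were higher and 2 lower (13 and 2 of the 20 with at least 1 scaled FPKM in both lines), with a median of 0.97. Their median transcript was 5.29 kb. Of all genes over 5 kb 78.5% were higher and 4.89% lower (median 0.86). From 3 to 5 kb the shares were 37.8% and 18.8%, and under 3 kb 8.52% and 58.6%. The family counts here and below were not tested against these shares. The summed level of the pores was 278 ± 8.92 scaled FPKM in the exon 6-7 wild types and 512 ± 14 in the exon 7 wild types. Kcna2, a pore of axons beside the nodes of Ranvier, was 0.627, 0.797 and 1.76 scaled FPKM in the exon 6-7 wild types and 24.8, 22.5 and 23.6 in the exon 7 wild types (log2 fold change 3.62, SE 0.181, adjusted p = 3.81e-08). Over the exon 6-7 line Kcna2 averaged 1.02 scaled FPKM, close to the limit on level. Kcnq3, a subunit of the M-current that muscarinic receptors close, was 7.71, 7.68 and 6.81 scaled FPKM in the exon 6-7 wild types and 37.3, 31.3 and 29.9 in the exon 7 wild types (log2 fold change 2.01, SE 0.136, adjusted p = 1.64e-07). In both genes the highest exon 6-7 wild type lay far below the lowest exon 7 wild type. Kcna3, known from lymphocytes as well as from neurons, was at 0.267, 0.214 and 0.375 against 3.32, 3.55 and 3.204 (log2 fold change 1.76, SE 0.119, adjusted p = 1.57e-07). The 2 lower pores were Kcnh3, a slow channel of the ether-a-go-go-like family in forebrain neurons, at 30.6, 30.7 and 27.1 against 15.4, 17 and 15.6 (log2 fold change -0.84, SE 0.1005, adjusted p = 1.39e-05), and Kcna6, a pore of the family of Kcna2, at 27.2, 26.8 and 26.96 against 19.2, 14.96 and 15.6 (log2 fold change -0.68, SE 0.101, adjusted p = 8.32e-05). Kcnh3 exons overlap those of Mcrs1 on the other strand (22.2 scaled FPKM).

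The modifying subunits were divided, with 3 of 8 higher and 2 lower, and had a median transcript of 3.95 kb. Kcng2 was 20.96, 11.5 and 10.4 scaled FPKM in the exon 6-7 wild types and 6.22, 6.64 and 8.27 in the exon 7 wild types (log2 fold change -0.87, SE 0.227, adjusted p = 0.00472), and Kcns1 was 6.66, 6.57 and 5.22 against 2.92, 3.701 and 2.802 (log2 fold change -0.79, SE 0.134, adjusted p = 2.35e-04). Calcium- and sodium-activated pores were higher for 4 of 7 and lower for 1, the 4 including Kcnn3, which averaged 0.611 scaled FPKM in the exon 6-7 line. The 7 had a median transcript of 5.79 kb. Kcnma1, the pore of the large-conductance channel that voltage and calcium open together, was 1.44, 1.64 and 3.11 scaled FPKM in the exon 6-7 wild types and 29.6, 27.9 and 28.9 in the exon 7 wild types (log2 fold change 3.32, SE 0.162, adjusted p = 3.71e-08). Kcnt2, a sodium-activated pore, was 2.897, 2.27 and 2.42 against 11.8, 8.28 and 8.69 (log2 fold change 1.57, SE 0.145, adjusted p = 1.73e-06), and the small-conductance Kcnn1 was lower, at 5.31, 5.71 and 5.71 against 3.82, 4.39 and 3.43 (log2 fold change -0.43, SE 0.114, adjusted p = 0.00488). Of these genes Kcnma1 had the widest separation, the lowest exon 7 wild type being at 27.9 and the highest exon 6-7 wild type at 3.11.

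Inward rectifiers were higher for 6 of 11 and lower for 3, with a median transcript of 3.63 kb. Kcnj6, a G-protein-opened subunit that forms channels with Kcnj3 and Kcnj9, was 3.03, 2.52 and 4.12 scaled FPKM in the exon 6-7 wild types and 18.1, 21.6 and 23.1 in the exon 7 wild types (log2 fold change 2.39, SE 0.137, adjusted p = 5.86e-08), while Kcnj9 itself was 35.7, 37.6 and 42.4 against 28.7, 32.4 and 29.04 (log2 fold change -0.35, SE 0.105, adjusted p = 0.0110). Kcnj4 was 44.7, 51.1 and 45.4 scaled FPKM in the exon 6-7 wild types and 19.6, 21.2 and 19.1 in the exon 7 wild types (log2 fold change -1.20, SE 0.0954, adjusted p = 5.52e-07), the largest decrease of any Kcn gene. Kcnj8, the pore of the ATP-sensitive channel of vascular muscle and pericytes, was 2.54, 2.67 and 2.27 against 1.74, 1.44 and 1.48 (log2 fold change -0.45, SE 0.164, adjusted p = 0.0278), and this call was lost when mouse WT778, WT809, WT993 or WT999 was left out. Of the two-pore genes 2 of 8 were higher and 1 lower, the 2 including Kcnk9, which averaged 0.998 scaled FPKM in the exon 6-7 line. The 8 had a median transcript of 3.325 kb. Kcnk9, an acid-sensitive background channel, was 0.682, 0.370 and 1.299 scaled FPKM in the exon 6-7 wild types and 12.9, 11.4 and 9.98 in the exon 7 wild types (log2 fold change 2.83, SE 0.205, adjusted p = 2.71e-07), and Kcnk12 was 9.43, 4.75 and 4.28 against 3.33, 2.93 and 2.39 (log2 fold change -0.82, SE 0.271, adjusted p = 0.0183). The first value of Kcnk12 was that of mouse WT778, without which the difference was -0.51 and no longer passed (adjusted p = 0.0814), and without mouse WT999 the adjusted p was 0.0632.

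Auxiliary subunits were divided. Of the 11 tested, 2 were higher and 3 lower (median -0.19), and their summed level was 472 ± 2.41 scaled FPKM in the exon 6-7 wild types and 421 ± 28.2 in the exon 7 wild types. The 11 had a median transcript of 2.73 kb. Of all genes under 3 kb 8.52% were higher and 58.6% lower (median -0.52). Kcnmb4 was 79.5, 70.5 and 68.9 scaled FPKM in the exon 6-7 wild types and 38.4, 52.6 and 62.9 in the exon 7 wild types (log2 fold change -0.52, SE 0.158, adjusted p = 0.0110), and -0.33 without mouse WT628 (adjusted p = 0.0408). Kcnab3, a beta subunit, was 19.9, 21 and 20.9 against 14.9, 11.4 and 12.7 (log2 fold change -0.63, SE 0.109, adjusted p = 2.59e-04), and Kcne1l was 4.09, 4.65 and 5.11 against 2.26, 2.39 and 3.199 (log2 fold change -0.64, SE 0.128, adjusted p = 7.75e-04).

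Transcript ratios of subunits that share a channel also differed between the 2 lines, which restates the differences of the single genes. Ratios of genes of unlike length carry the length trend given below. Such pairs are Kcnmb4 (1.63 kb) with Kcnma1 (12.1 kb) and Kcna1 (4.03 kb) with Kcna2 (11.6 kb). Kcnj9 (3.86 kb) and Kcnj6 (3.63 kb) are alike in length. The ratio of Kcnmb4 to Kcnma1 was 22.1 to 55.3 over the 6 mice of the exon 6-7 line and 1.298 to 2.18 over those of the exon 7 line. For Kcna1 to Kcna2, which assemble in axons, it was 8.15 to 24.1 and 1.497 to 1.83, where Kcna2 averaged only 1.02 scaled FPKM in the exon 6-7 line. Among G-protein-opened rectifiers the ratio of Kcnj3 to Kcnj6 was 10.2 to 15.5 and 2.17 to 3.36, and that of Kcnj9 to Kcnj6 8.84 to 14.9 and 1.26 to 1.76. The dendritic A-type pores were closer to each other in proportion, with Kcnd2 to Kcnd3 at 1.58 to 1.96 and 1.197 to 1.42. For none of these pairs did the lines overlap.

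**Figure D4:**
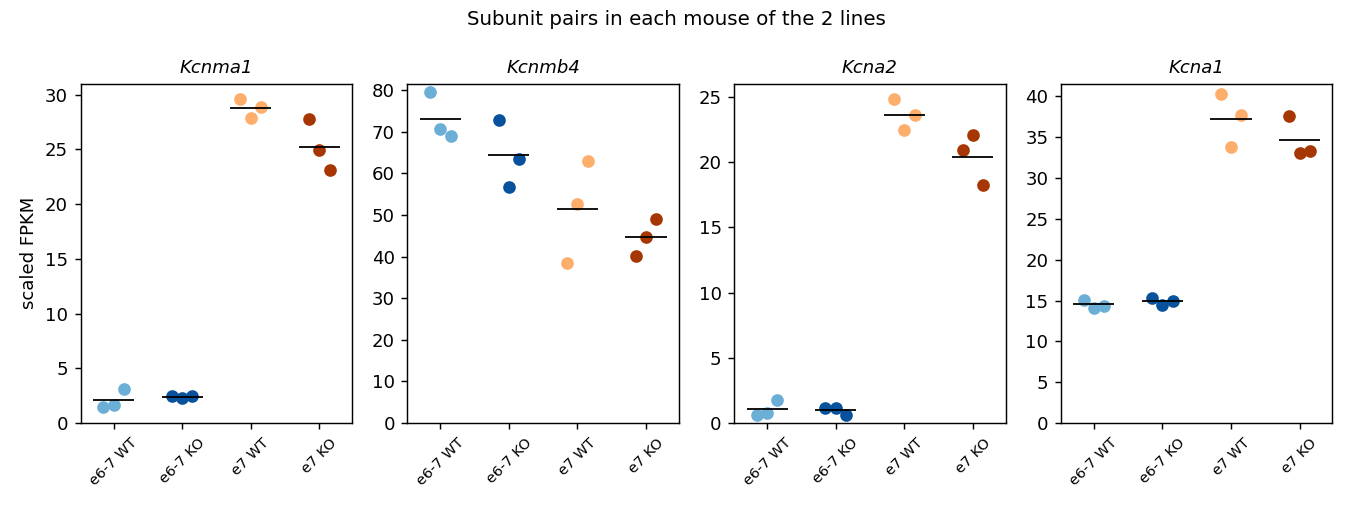
Scaled FPKM of Kcnma1, Kcnmb4, Kcna2 and Kcna1 by group, on linear axes that start at 0; each point is 1 mouse and each line the mean of a group. Kcnma1 and Kcna2 are near 0 in the exon 6-7 line and at 18.2 or more in all mice of the exon 7 line, whereas Kcnmb4 is at 38.4 or more in every mouse.

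The line difference moved with transcript length across all genes. The rank correlation of the longest annotated transcript with the log2 difference was 0.67 over 14064 genes and 0.63 over the 68 Kcn genes, given as a description, since the genes come from the same libraries. Kcn genes tested had a median transcript of 4039 bases, against 3295 for all genes. Over 5 kb, 23 of 25 Kcn genes were higher and 1 lower, beside 78.5% and 4.89% of all genes of that length; from 3 to 5 kb, 8 of 25 were higher and 3 lower, beside 37.8% and 18.8%; and under 3 kb, 2 of 18 were higher and 8 lower, beside 8.52% and 58.6%. Median differences rose in the same order, -0.24, 0.05 and 1.13 for Kcn genes and -0.52, 0.16 and 0.86 for all genes. These counts and medians include the genes named above that averaged under 1 scaled FPKM in the exon 6-7 line. They are Kcnb2, Kcnn3 and Kcnk9 over 5 kb, Kcnh5 from 3 to 5 kb and Kcna3 under 3 kb, all called higher. Kcnma1 (12.1 kb), Kcnk9 (12.3 kb), Kcnq3 (11.8 kb) and Kcna2 (11.6 kb) are among the long ones, whereas Kcnj6 (3.63 kb) and Kcna3 (1.902 kb) are not.

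With the trend of length removed from each library, an alternative added after the data were seen, 23 Kcn genes were higher and 16 lower, so that 59.0% of those called were higher in place of 73.3%, and among all genes 24.9% were higher and 25.3% lower. The median of Kcn genes was then 0.05. Of the 33 genes higher before, 21 were still called higher, 8 no longer passed and 4 were called lower; of the 12 lower ones 8 were still called lower and 4 no longer passed. Kcnj6 came to 2.31, Kcna3 2.27, Kcna2 2.25, Kcnma1 1.92, Kcnk9 1.41 and Kcnq3 0.62, all still past the threshold. The 33 include the 5 genes that met the limit on level through the exon 7 line, where they had to be higher. Of these Kcna3, Kcnh5 and Kcnk9 were still called higher, and Kcnb2 and Kcnn3 no longer passed. Their calls therefore show no difference beyond that limit. Among the genes that no longer passed, named after their values were seen, Kcnb2 went from 1.45 to -0.12, Kcnh7 from 1.39 to -0.09 and Kcnh1 from 0.97 to 0.05; all 3 are voltage-gated pores. Among the lower genes Kcna6 came to -1.35 and Kcnj4 to -0.79, and Kcnmb4 changed sign, to 0.10 (adjusted p = 0.611), as did Kcne1l, to 0.02 (adjusted p = 0.922). Kcnt1, Kcnk10, Kcnc1 and Kcnj3, higher before, were lower after it. Without scaling between libraries 63.0% of the Kcn genes called were higher; in that setting the median of all genes lay at -0.14.

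**Figure D5:**
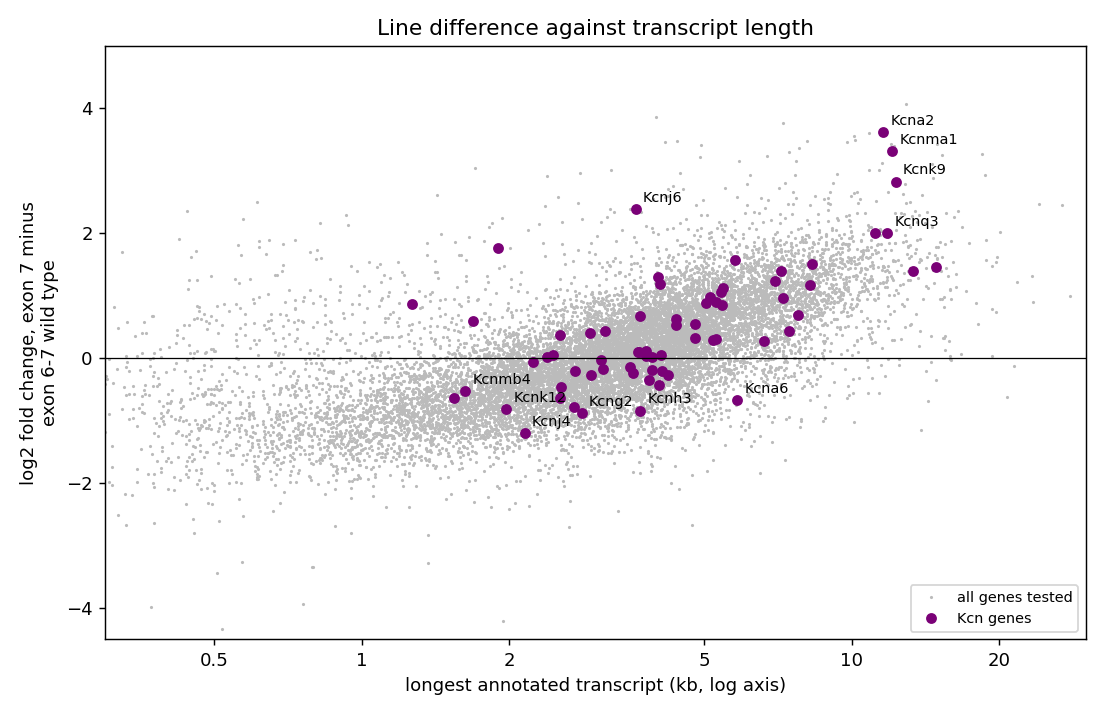
Log2 difference of the exon 7 and exon 6-7 wild types (vertical) against the longest annotated transcript in kb (logarithmic horizontal axis); grey points are all genes tested with a length and purple points the Kcn genes, and 92 genes lie outside the axes. Longer transcripts lie higher, and Kcnj6 lies above most genes of its length.

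Genes most alike to the 3 Kcn genes of smallest p were sought among all genes tested, by the correlation over the 12 mice of values centred within each line, a description with no test. For Kcnma1 they were Kpnb1 (0.97), Pikfyve (0.95) and Naa25 (0.94), for Kcnd3 Srgap3 (0.91), Arhgap12 (0.90) and Fat4 (0.87) and for Kcna2 Rab11fip4 (0.89), Zfp949 (0.89) and Grik3 (0.88). Kcnd3 itself was 8.68, 8.01 and 8.72 scaled FPKM in the exon 6-7 wild types and 22.6, 24.9 and 23.96 in the exon 7 wild types (log2 fold change 1.39, SE 0.0784, adjusted p = 5.45e-08).

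Some Kcn genes also differed between the library sets within a line. In a fit with the set as a term, 6 Kcn genes differed between sets in the exon 6-7 line (6.82% of all genes did) and 18 in the exon 7 line (31.5% of all genes). Kcng2 was 20.96 scaled FPKM in mouse WT778 and 15.6 in mouse KO776, the set A mice of the exon 6-7 line, against 9.395 to 11.5 in the other 4 mice. Kcnk12 was 9.43 and 7.67 in the same pair, against 3.64 to 4.75. In the exon 7 line Kcnj2 was 3.65 and 5.59 against 2.91 to 3.51. For these 3 genes the sets did not overlap in the line named, and set A holds 1 wild type and 1 knockout of each line. With the set as a term 35 Kcn genes were higher and 17 lower in the exon 7 wild types. The share of all genes called in that fit is not reported here, so these counts show nothing particular to Kcn genes.

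Proteins that bind potassium channels but are not Kcn genes were followed as a list of 22, of which 20 were tested. By limma 0 of the 20 had an adjusted p under 0.05 in either knockout comparison, and 0 had an unadjusted p under 0.05 in each. The smallest p in the exon 6-7 line were those of Calm3 (-0.16), which encodes calmodulin, Adam22 (0.15) and Adam23 (-0.13), which bind the LGI proteins beside Kcna channels, and Abcc9 (0.17), the sulphonylurea receptor of vascular ATP-sensitive channels. In the exon 7 line they were those of Adam23 (-0.14), Cntn2 (-0.19), which gathers Kcna channels beside the nodes, Dpp10 (-0.14), which partners the Kcnd pores, and Calm3 (0.08). Between the wild types 13 were higher in the exon 7 line and 2 lower, Calm2 (-0.41) and Calm3 (-0.62), with a median of 0.44, beside 33.9% and 33.2% of all genes. The 20 include Abcc9 and Lrrc26, which averaged 0.474 and 0.984 scaled FPKM in the exon 6-7 line. Abcc9 thus met the limit on level through the exon 7 line, where it had to be higher, and Lrrc26 lay close to the limit. Calm2 (1.21 kb) and Calm3 (2.29 kb) have short transcripts, and those of the next 2 genes are long, 9.96 and 6.69 kb, as in the trend with length above. Ank3, the scaffold that anchors Kcnq3 at the axon initial segment, had a log2 difference of 2.04 (SE 0.139, adjusted p = 1.68e-07), and Akap5, which anchors kinases at channels, one of 1.49 (SE 0.133, adjusted p = 1.30e-06).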

How the data were processed

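RNA of the hippocampi of 12 mice was deposited as 1 FPKM value per gene and mouse. Per the submitters' processing notes, CASAVA, GSNAP and Cufflinks were used with mm10; settings for strand and for reads of several places are not known here. The authors' FPKM tables use Ensembl release 74 identifiers, per the file headers, and list no zeros. An unlisted gene was set to 0. Genotype labels gave the groups, and every mouse number is used once. No library repeated another (at most 0.00546% equal values). FPKM keeps no read total, so the depth is unknown and counting error cannot be given.

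Between-library scaling used median ratios over 12511 genes with at least 1 FPKM in all mice (factors 0.919 to 1.07). Symbols (24077 of 24590 identifiers), biotypes and lengths came from GENCODE M21, on the build of mm10, and 110 small RNAs were left out. The 14218 genes averaging 1 FPKM or more entered the test on log2(scaled FPKM + 1), which understates the change of low genes, with limma 3.58.1 (limma-trend, R 4.3.3), 4 group means, 8 residual and 3.88 prior degrees of freedom. Tests were two-sided, with Benjamini-Hochberg adjustment over all 14218 genes and a threshold of 0.05. Exact permutation tests were added for single genes, where the smallest p is 0.1 within a line and 0.005 over both. Promoters were RefSeq windows on GRCm38.p6. Exons of 28 of the 91 genes overlap another gene, 11 of them one at 1 FPKM or more, and reads of such pairs may be divided between them.

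Named in the text were the 12 genes of highest mean, genes past the threshold (beyond 12 in a direction the 8 of largest change) or else the 3 of smallest p in each direction, a list of genes with known roles in hippocampus and choroid plexus, and up to 4 partners a comparison; the values of some genes that meet this rule are not reported here. Members, lists and tests were chosen with earlier results of these data known. Alternatives were other pseudocounts, level filters and normalizations, TPM rescaling, quality weights, a library set term, each line alone, each mouse left out, and removal of the length trend, the last chosen after seeing the data, as was the count of genes at 1 scaled FPKM or more in both lines.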

Additional observations from a re-analysis of the deposited data

How the results depend on the processing

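In the knockout comparisons, their difference and their mean, 0 Kcn genes had an adjusted p under 0.05 by limma under every alternative run (22 or 23 each). Medians of these comparisons stayed between -0.0923 and 0.0453. Rescaling to TPM moved them to 0.0453 (exon 6-7), 0.00796 (exon 7) and 0.0262 (mean), and a limit of 5 FPKM moved the difference to -0.0923. Leaving out 1 mouse gave -0.03 to 0.02, -0.06 to -0.03, -0.04 to -0.01 and -0.08 to -0.04 in the same order, the difference last. Kcnj2 in the exon 7 line came to -0.0366 without mouse KO969 and 0.34 without mouse KO994. Between the wild types 32 to 52 Kcn genes passed (45 as reported, 40 to 47 with 1 mouse left out), counts given without the shares of all genes under those settings. Their median was 0.43 with a pseudocount of 0.1, 0.19 with 5, 0.0924 with no limit on level, 0.54 with 5 FPKM, 0.30 with at least 1 scaled FPKM in both lines, 0.22 as deposited, 0.29 after quantile normalization, 0.47 as TPM, 0.0498 with the length trend removed, and 0.26 to 0.38 with 1 mouse left out, lowest without mouse WT865. Kcnmb4 (0.10) and Kcne1l (0.0181) changed sign with the length trend removed. Deposited values moved the median of all genes by -0.14 and TPM by 0.12, with 63.0% and 80.4% of the Kcn genes called being higher. Kcnj9 did not pass after quantile normalization or as TPM (adjusted p = 0.0733 and 0.145 by limma), nor did Kcnmb4 (0.123 and 0.0689). Except as stated, the cause was not tested. No paired analysis was possible because each mouse number occurs in 1 group only and so pairs no mice; the library set, a split of the libraries and not a pairing, was fitted as a term. With 3 mice a group and unknown read depth, the 95% interval of a typical Kcn gene spans 0.29 log2 units to either side in a knockout comparison.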
